A study of Homo sapiens with 2 samples.

Results

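The 9 genes described here act on retinoic acid, and each of them has 1 row among the 61487 genes listed for both libraries. They are the uptake receptor STRA6, the binding proteins CRABP1 and CRABP2, the synthetic enzyme ALDH1A2, the degrading enzymes CYP26A1 and CYP26B1, and the receptors RARA, RARB and RARG. They were found by exact symbol and were chosen by their counts, pooled levels and detection in these libraries, so those values are given as a description. The libraries hold single cells from the human embryonic stem cell line H9 (WA09), in which EGFP was knocked into the TPH2 gene, so that cells that use this serotonin-synthesis gene are green. EGFP-positive cells were sorted after 42 days of differentiation into serotonin neurons (SNs). One library is labelled WT, and the other, labelled FKO, comes from cells that carry the same reporter together with a knockout of the transcription factor FOXA2. The study's methods describe the reporter knockout line as made on 1 FOXA2-edited line, in which repair of a cut left an early stop, so the comparison is between lines as well as genotypes. The dose of purmorphamine, an agonist of hedgehog signalling, and any retinoic acid given to the cultures of these libraries are not given in the sources used here, and neither is the form of the B27 supplement. Elsewhere in the study, FKO cells stained at the same day had received a higher purmorphamine dose than WT cells, and if that was so here, dose and genotype cannot be told apart.

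Retinoic acid is a small lipid made inside cells from vitamin A (retinol). Retinol enters cells through STRA6, is oxidised in successive steps of which ALDH1A2 catalyses the last, and the acid is then carried by CRABP proteins to nuclear receptors (RARs) or to CYP26 enzymes that break it down. RARs sit on DNA as dimers with RXR proteins, and in the embryonic hindbrain, where serotonin neurons arise, the acid is known for setting posterior identity and HOX gene use.

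RARB and CYP26A1 are textbook targets of the retinoic acid receptors. Their upstream sequences are shown because each holds a repeat of the receptors' core motif, and because these genes differed in opposite directions between the libraries. The 250 bases before 1 RefSeq start of each gene (build GRCh38.p14) follow, 5′ to 3′, with every core motif in capitals. The RARB window is chr3:25428013-25428262 and the CYP26A1 window chr10:93073643-93073892, both on the plus strand.
RARB: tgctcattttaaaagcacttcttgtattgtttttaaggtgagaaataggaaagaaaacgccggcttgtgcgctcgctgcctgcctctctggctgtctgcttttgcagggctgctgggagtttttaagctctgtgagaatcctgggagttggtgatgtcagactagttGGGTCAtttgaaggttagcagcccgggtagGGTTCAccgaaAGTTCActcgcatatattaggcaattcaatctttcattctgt
CYP26A1: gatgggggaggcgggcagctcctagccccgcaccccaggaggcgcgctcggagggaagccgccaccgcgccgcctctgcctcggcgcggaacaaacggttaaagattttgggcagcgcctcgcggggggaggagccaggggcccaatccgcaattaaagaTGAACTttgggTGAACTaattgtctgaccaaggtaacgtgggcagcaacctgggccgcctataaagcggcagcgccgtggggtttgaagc
The search covered both strands with AGGTCA as the classical core, with AGTTCA as the form common in such repeats, and with GGGTCA or its relative GGTTCA as further forms, overlapping matches being counted. A direct repeat was 2 of them on 1 strand with 5 bases of any kind between, as in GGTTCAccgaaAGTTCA of RARB, which began 53 bases before the start. In CYP26A1 the repeat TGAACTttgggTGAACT read on the opposite strand and began 90 bases before the start. Such a repeat was found in 31 of 35116 promoter windows of 300 bases (0.0883%) and in 2 of the 20 windows of the 9 members, while any single core motif stood in 38.6% of all windows and in 9 of the 20. The searched forms include GGTTCA and AGTTCA, of which the RARB repeat is made, and the CYP26A1 repeat is made of AGTTCA alone. RARB and CYP26A1 were already known as targets of the receptors, so the 2 of 20 windows cannot show an enrichment among the members. A match of letters is a description and not a site in use. As given below, RARB was higher and CYP26A1 lower in the library labelled FKO. RARB rests on 41 and 90 UMIs, and after thinning its interval includes no difference. Cluster 6 of the library labelled WT held 193 of the 229 CYP26A1 UMIs there.

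The library labelled WT held 11052 barcodes and 123064653 unique molecular identifiers (UMIs, 1 per captured transcript), and the library labelled FKO 8806 barcodes and 70588747 UMIs. Filters left 5749 and 6978 cells. The thresholds of the study's own cell filter are not given in the sources used here, so these are not its set of cells, and the sizes of small classes rest on which cells were kept. Their median depth was 12460 and 6927 UMIs, and 7.82% and 5.33% of the UMIs of the median cell were mitochondrial. The libraries shared 21 barcode sequences. FOXA2, the targeted gene, was higher under the FKO label, with 334 UMIs under the WT label and 1265 under the FKO label. That is 4.35 and 21.8 CPM (UMIs per 1000000 UMIs of the library). Reads from transcript ends cannot reveal an early stop codon, so these counts cannot check the labels. Every direction below rests on the labels alone, and cells are called WT-labelled or FKO-labelled. Floor plate genes went both ways between the matched clusters WT 6 and FKO 8, described below. SHH stood at 99.6 and 23.0 CPM there, CORIN at 52.7 and 6.50 CPM, and SPON1 at 435 and 273 CPM. NTN1, at 67.5 and 113 CPM, and FOXA2 itself, at 38.9 and 113 CPM, were higher under the FKO label. Whether the labels were exchanged was not tested. With 1 library per genotype no test between them is possible and none was made. Ranges in brackets are exact 95% limits for counting error alone and leave out the spread between cells and between cultures. The spread between cells can exceed them. In WT cluster 3, CRABP1 stood at 80.6 CPM (76.2 to 85.2) and, without its highest cell, at 55.4 CPM. FEV, the transcription factor that defines serotonin neurons, had a UMI in 5629 WT-labelled cells (97.9%) and 6352 FKO-labelled cells (91.0%). This leaves 120 and 626 FEV-negative cells. FEV is abundant, at 289 and 278 CPM even in its lowest clusters (WT 6 and FKO 8), no type here is sure to lack it, and the part of free RNA in calling a cell FEV-positive from 1 UMI was not tested. The 7 further serotonin neuron markers were all higher in FEV-positive cells of both libraries, summing to 1173 against 189 CPM with the WT label and to 1492 against 280.0 CPM with the FKO label. TPH2 itself was seen in 72.9% of FEV-positive and 13.3% of FEV-negative WT-labelled cells, and in 56.5% and 11.7% of FKO-labelled cells.

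CRABP2 was the member with the largest difference between the libraries among those above 10 CPM, being 4.48-fold lower in FKO-labelled cells, while the level of its relative CRABP1 was nearly the same in both. CYP26A1 was 28.8-fold lower on far fewer UMIs. Of the 9 members, 3 were more than 2-fold lower in FKO-labelled cells (CRABP2, ALDH1A2 and CYP26A1) and 3 more than 2-fold higher (RARB, RARG and CYP26B1), the last with 4 and 9 UMIs and an interval that includes no difference. Among all 9676 genes with at least 10 CPM in either library, 1.74% were more than 2-fold lower and 20.7% more than 2-fold higher. Only CRABP1 and CRABP2 reach that level. Among the 28465 genes with a ratio and no minimum level the shares were 4.3% and 40.5%, so being higher was common among low genes. The median log2 ratio over the 9676 genes was 0.47 and over the 9 members -0.25. Relative to that shift of all genes, 4 members were more than 2-fold lower, STRA6 being added, and the same 3 were more than 2-fold higher. The shares were 9.7% lower and 5.75% higher among genes with at least 10 CPM, a level that 7 of the 9 members do not reach, and 10% and 25.1% with no minimum level. The 3 higher members were no longer all past that limit in other settings: with each cell thinned to 2000 UMIs 1 of them was, and among cells with at most 5% mitochondrial UMIs, which leaves 340 WT-labelled cells, none.

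**Figure D1:**
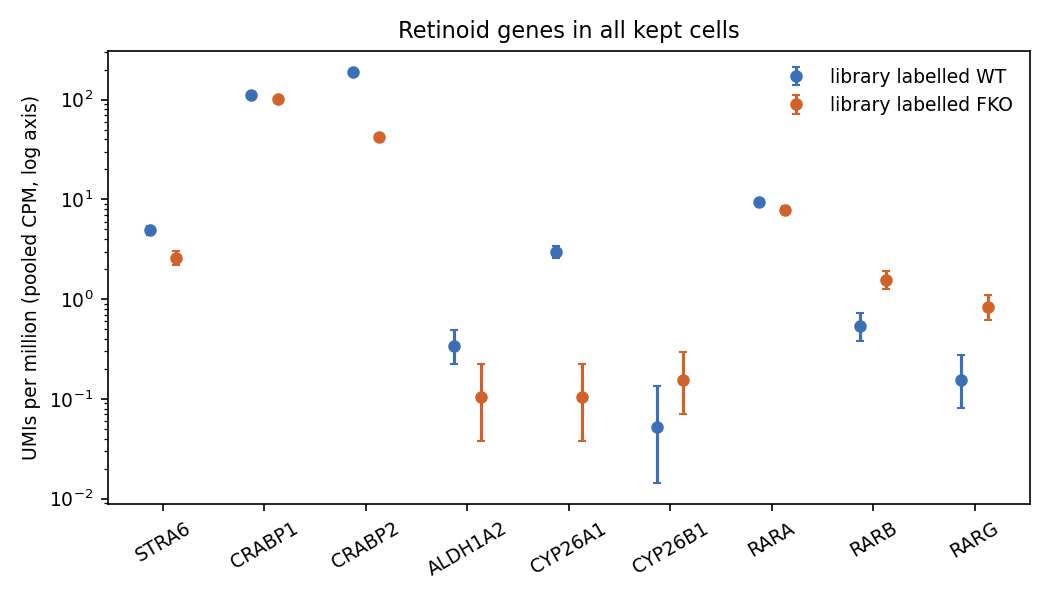
Pooled CPM (log axis) of the 9 retinoid genes in all kept cells of the WT-labelled library (blue) and the FKO-labelled library (orange). Points are pooled values and bars exact 95% Poisson intervals; CRABP2 stands at 189 and 42.3 and CYP26A1 at 2.98 and 0.104, while the points of CRABP1 nearly meet at 111 and 101.

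STRA6 (ENSG00000137868, chr15:74179466-74212267 on the minus strand), the membrane receptor that takes retinol from its blood carrier, had 377 UMIs or 4.91 CPM in WT-labelled cells and 149 UMIs or 2.57 CPM in FKO-labelled cells. Set as FKO over WT, which holds for each ratio between libraries here, this is a log2 ratio of -0.93 (-1.22 to -0.65), and of -1.41 once the median gene is subtracted. A UMI was seen in 5.90% and 2.02% of cells, and in 0.859% and 0.321% once each cell was thinned to 2000 UMIs. The direction was not the same in all cells. In 5 of 7 pairs of matched clusters, described below, STRA6 was lower in FKO-labelled cells, with an interval under 0 in 3 of them, and in cluster 8 of that library, led by COL1A1 and COL1A2, it stood at 10.8 CPM (40 UMIs) against 3.28 CPM (14 UMIs) in the matched WT-labelled cluster.

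CRABP1 (ENSG00000166426, chr15:78340324-78348230, plus strand) binds retinoic acid in the cytoplasm. It had 8509 UMIs or 111 CPM in WT-labelled cells and 5867 UMIs or 101 CPM in FKO-labelled cells, a log2 ratio of -0.13 (-0.18 to -0.08) and of -0.60 relative to the median of all genes. The share of cells with a UMI differed more than the pooled level, at 45.1% against 24.3%, and at 14.2% against 8.69% after thinning. A few cells held much of the signal: the top 10% of cells by CRABP1 held 64.3% of its UMIs in WT-labelled cells and 83.0% in FKO-labelled cells, and the highest single cells held 389 and 195 UMIs. In cells of more than 7500 to 15000 UMIs the log2 ratio was 0.072, so the direction of the pooled ratio does not hold at every depth.

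CRABP2 (ENSG00000143320, chr1:156699606-156705816, minus strand) carries retinoic acid to its nuclear receptors. It had 14547 UMIs or 189 CPM in WT-labelled cells and 2449 UMIs or 42.3 CPM in FKO-labelled cells. The log2 ratio was -2.16 (-2.23 to -2.10), and only 11 of the 9676 genes with at least 10 CPM had a lower one. A UMI was seen in 68.9% of WT-labelled cells and 23.6% of FKO-labelled cells, and after thinning in 26.0% and 8.15%. No cell held more than 29 and 7 CRABP2 UMIs, and the top 10% of cells by CRABP2 held 40.8% and 61.2% of them. Depth moved with the libraries, and within cells of 1000 to 7500 UMIs the log2 ratio was -1.65, within cells of more than 7500 to 15000 UMIs -2.04, and above 15000 UMIs -2.41. CRABP2 was thus lower with the FKO label in each of the 3 depth ranges.

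No cell type in these libraries is sure to lack either binding protein, so free RNA cannot be read from a negative type. After thinning, the lowest share of CRABP2-positive cells in a cluster of at least 100 cells was 9.09% in WT-labelled cells (cluster 6, median of 15242 UMIs) and 1.64% in FKO-labelled cells (cluster 7, median of 5611 UMIs), and the highest was 40.0% (cluster 2) and 13.5% (cluster 1). For CRABP1 the shares ran from 8.79% to 41.7% in WT-labelled cells and from 4.19% to 21.5% in FKO-labelled cells. The shares thus differed between clusters within each library as well as between the libraries.

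ALDH1A2 (ENSG00000128918, chr15:57953424-58497866, minus strand), the enzyme that makes most retinoic acid in the early embryo, was close to the limit of detection. It had 26 UMIs in 26 cells of the WT-labelled library and 6 UMIs in 5 cells of the FKO-labelled library, or 0.339 and 0.104 CPM, a log2 ratio of -1.71 (-3.28 to -0.40). Of the 26 UMIs, 15 came from cluster 2 of the WT-labelled library, led by STC1, GAL and CRH, and no FEV-negative cell of either library held one. At the depth of the FEV-negative cells, a count of 0, read as allowing 3 UMIs, allows 3.07 CPM in WT-labelled cells and 0.766 CPM in FKO-labelled cells, which is above the level in FEV-positive cells.

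CYP26A1 (ENSG00000095596, chr10:93073475-93077890, plus strand), the enzyme that clears retinoic acid at the sites where the embryo must be shielded from it, had 229 UMIs or 2.98 CPM in WT-labelled cells and 6 UMIs or 0.104 CPM in FKO-labelled cells. The log2 ratio was -4.85 (-6.31 to -3.70). The WT-labelled signal came from 62 cells, of which 31 held 1 UMI and 16 held at least 5, and the 5 highest cells held 74 UMIs (32.3%). CYP26B1 (ENSG00000003137, chr2:72129238-72148038, minus strand), an enzyme of the same family, had 4 and 9 UMIs, each in a cell of its own, and its log2 ratio of 1.58 had an interval from -0.26 to 3.73. A difference in CYP26B1 was not detectable at this depth.

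RARA (ENSG00000131759, chr17:40309192-40357643, plus strand), the receptor found in most tissues, had 716 UMIs or 9.32 CPM in WT-labelled cells and 454 UMIs or 7.84 CPM in FKO-labelled cells. The log2 ratio was -0.25 (-0.42 to -0.08), but 0.12 among cells with at most 5% mitochondrial UMIs. An antisense gene, RARA-AS1, lies within the same stretch and had 876 and 677 UMIs. Whether counting used the strand is not given in the sources used here, so reads of this pair may have been split between them and the level of RARA is uncertain. RARB (ENSG00000077092, chr3:25174332-25597932, plus strand), the receptor that retinoic acid itself induces, had 41 UMIs or 0.534 CPM in WT-labelled cells and 90 UMIs or 1.55 CPM in FKO-labelled cells. Its log2 ratio was 1.54 (0.99 to 2.11), and the same ratio was 0.83 (-0.55 to 2.37) after thinning. RARG (ENSG00000172819, chr12:53210567-53232980, minus strand), a receptor used mainly in skin and cartilage, had 12 UMIs and 48 UMIs, or 0.156 and 0.829 CPM, a log2 ratio of 2.41 (1.47 to 3.46). Cluster 8 of the FKO-labelled library held 40 of its 48 UMIs.

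The question of where these genes lie in the sorted cells was taken up next, by comparing FEV-positive with FEV-negative cells of each library. By CPM, CRABP2 was higher, and CRABP1 lower, in FEV-positive cells of both libraries. In the WT-labelled library, CRABP2 stood at 191 CPM in FEV-positive and 51.1 CPM in FEV-negative cells, a log2 ratio of 1.90 (1.5 to 2.33), and in FKO-labelled cells at 43.8 and 22.0 CPM, a log2 ratio of 0.99 (0.68 to 1.32). CRABP1 stood at 110.1 and 167 CPM in WT-labelled cells, a log2 ratio of -0.60 (-0.82 to -0.37), and at 85.8 and 315 CPM in FKO-labelled cells, a log2 ratio of -1.87 (-1.96 to -1.78). The share of cells with a CRABP1 UMI was 45.4% of FEV-positive and 30% of FEV-negative WT-labelled cells, the other way from the CPM, and 24.1% and 25.7% of FKO-labelled ones. After thinning it was 14.1% (13.2 to 15.1) and 17.8% (10.9 to 26.7), and 7.89% (7.23 to 8.58) and 17.6% (14.6 to 21.1), and the top 10% of FEV-negative FKO-labelled cells held 89.0% of their CRABP1 UMIs. The direction for CRABP1 in WT-labelled cells was the other way with all deposited barcodes (0.034) and with at most 5% mitochondrial UMIs (0.38). FEV-negative cells gave 1.27% of all UMIs and 1.92% of the CRABP1 UMIs in WT-labelled cells, but 6.76% of all UMIs and 21.0% of the CRABP1 UMIs in FKO-labelled cells.

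For CRABP1 the comparison of the libraries pointed opposite ways in the classes, a difference that was not tested. Among FEV-positive cells the log2 ratio of CRABP1 was -0.36 (-0.41 to -0.31), while among FEV-negative cells it was 0.92 (0.68 to 1.16). For CRABP2 it was -2.13 (-2.19 to -2.06) and -1.22 (-1.74 to -0.69), lower in FKO-labelled cells in both. The plot by FEV class shows both. The FEV-negative cells were spread differently over clusters, which are described below. Of the 120 with the WT label, 59 were in cluster 6 and 24 in cluster 7. Of the 626 with the FKO label, 311 were in cluster 5 and 163 in cluster 8. In FEV-negative cells CRABP1 stood at 378 CPM in WT cluster 7 and 285 CPM in its match, FKO cluster 5. It stood at 51.3 CPM in WT cluster 6 and 465 CPM in its match, FKO cluster 8. The part of this make-up in the ratios was not tested. Read along the number of FEV UMIs per cell, CRABP2 in WT-labelled cells went from 51.1 CPM at 0 FEV UMIs to 76.3, 120.0, 199.8 and 211 CPM at 1 to 2, 3 to 9, 10 to 29 and 30 or more. In the FKO-labelled library the same classes gave 22.0, 28.5, 47.1, 44.4 and 36.9 CPM. CRABP1 was highest at 1 to 2 FEV UMIs in WT-labelled cells (376 CPM) and at 0 in FKO-labelled cells (315 CPM), and at 30 or more it stood at 94.8 and 79.3 CPM. Without the highest cell of each class these levels were 297, 269, 76.9 and 65.5 CPM. Median depth differed between these classes, from 7516 to 16694 UMIs in the WT-labelled and from 5386, at 1 to 2 FEV UMIs, to 34646 UMIs in the FKO-labelled library, and its part in these levels was not tested.

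Among members at low levels, the 3 receptors in the FKO-labelled library all had lower CPM in FEV-positive cells. RARA stood at 7.50 CPM in FEV-positive and 12.5 CPM in FEV-negative cells, RARB at 1.37 and 4.09 CPM, and RARG at 0.5001 and 5.36 CPM. Their log2 ratios were -0.74, -1.58 and -3.42, all with intervals under 0, and STRA6, at 2.22 and 7.40 CPM, had a log2 ratio of -1.74 (-2.33 to -1.10). In the WT-labelled library, CYP26A1 stood at 2.78 CPM in FEV-positive cells (211 UMIs) and 18.4 CPM in FEV-negative cells (18 UMIs), a log2 ratio of -2.73 (-3.42 to -1.94). In all, 1 of the 6 members with a ratio in WT-labelled cells was more than 2-fold lower in FEV-positive cells (CYP26A1) and 2 more than 2-fold higher (CRABP2, and RARA with 4 UMIs in FEV-negative cells and an interval from -0.16 to 3.08). Among all genes with at least 10 CPM there, 7.65% were lower and 4.29% higher. In the FKO-labelled library, 5 of 8 members were more than 2-fold lower (CRABP1, RARB, RARG, STRA6 and CYP26A1, the last with 5 and 1 UMIs) and none higher, against 9.34% and 2.64% of genes with at least 10 CPM. With no minimum level the shares were 21.7% and 5.59% in WT-labelled cells and 20.7% and 4.91% in FKO-labelled cells. ALDH1A2 in both libraries, and RARG and CYP26B1 in WT-labelled cells, had no UMI in FEV-negative cells and were not detectable at that depth.

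**Figure D2:**
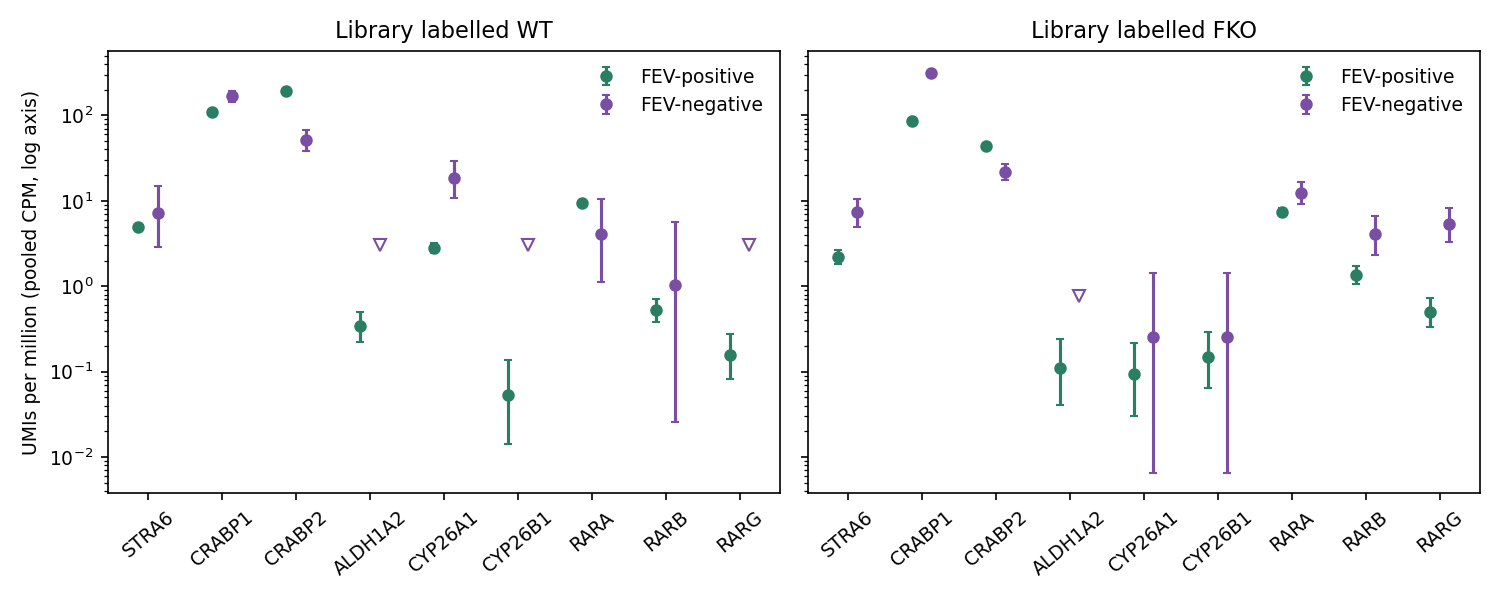
Pooled CPM (log axis) of the 9 genes in FEV-positive (green) and FEV-negative (purple) cells of the libraries labelled WT (left) and FKO (right). Bars are exact 95% Poisson intervals, and open triangles mark genes with no UMI at the level of 3 counts; CRABP2 is higher and CRABP1 lower in FEV-positive cells of both libraries.

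Other markers moved with FEV. In FEV-negative against FEV-positive cells, all 8 floor plate markers were higher in WT-labelled cells (summed 481 against 48.0 CPM) and 7 of 8 in FKO-labelled cells (298 against 61.0 CPM). All 6 mesenchymal markers were higher in FKO-labelled cells (1435 against 141 CPM), and 4 of 6 in WT-labelled cells (303 against 33.1 CPM), where COL1A1 and PDGFRA were at 0 in FEV-negative cells. The 6 glutamatergic markers summed to 178 against 22.5 CPM in FKO-labelled cells and to 75.7 against 7.32 CPM in WT-labelled cells. The 7 progenitor markers summed to 3711 against 955 CPM and to 3621 against 979 CPM in the libraries labelled WT and FKO. In the same order, the 5 cycling markers summed to 124 against 65.0 CPM and to 286 against 65.5 CPM. The 4 GABAergic markers summed to 22.5 against 2.12 CPM and to 27.8 against 3.09 CPM. The 5 general neuron markers went the other way, at 3406 against 5626 CPM and 4544 against 7497 CPM. Median depth was lower as well, at 7516.5 against 12530 UMIs in WT-labelled cells and 5718.5 against 7007.5 UMIs in FKO-labelled cells. Their part in the differences of the retinoid genes was not tested.

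Clusters made without the members resolved these classes further. The WT-labelled library gave 8 clusters and the FKO-labelled library 9, and they are called here by number and leading genes. CRABP2 was highest in cluster 2 of the WT-labelled library, led by STC1, GAL and CRH, at 313 CPM (305 to 320), which held 45.9% of its UMIs, and next in cluster 5, led by SST and UTS2, at 252 CPM (236 to 269). Then came cluster 1, led by CALB1 and SOX2, at 180 CPM, cluster 3, led by CAV1, at 123 CPM, cluster 7, led by LHX5-AS1, at 111 CPM, cluster 4, led by SLC17A8, at 89.9 CPM, and cluster 6, led by SULF1, at 46.2 CPM, while cluster 8 had 6 UMIs in 47 shallow cells. The intervals of clusters 3 and 7 overlap, and those of the other neighbours among clusters 1 to 7 do not. In the FKO-labelled library the levels ran from 6.62 CPM in cluster 7, led by SLC17A8, to 61.5 CPM in cluster 1, led by ONECUT3. Apart from clusters 6 and 8, every WT-labelled cluster stood above every FKO-labelled cluster.

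CRABP1 followed another order. It was highest in cluster 7 of the WT-labelled library, which also held most of the UMIs of LHX1 and of the glutamate transporter SLC17A6, at 391 CPM (364 to 419), and in clusters 8 and 5 of the FKO-labelled library, at 377 and 350.3 CPM. A CRABP1 UMI was seen in 84.4% of the cells of WT cluster 7 but in 41.96% and 35.2% of those of FKO clusters 8 and 5, and the top 10% of cells by CRABP1 held 41.4%, 71.4% and 88.7% of the UMIs, so the level of cluster 5 is that of few cells. Cluster 8 is led by the collagens COL1A1 and COL1A2, and cluster 5 by HCRT, LHX9 and LHX1. These 2 clusters of the FKO-labelled library held 1392 (23.7%) and 2291 (39.0%) of its 5867 CRABP1 UMIs, and FEV was seen in 48.6% and 52.6% of their cells. In the remaining clusters of that library CRABP1 stood between 25.0 CPM in cluster 6 and 89.6 CPM in cluster 7. In the WT-labelled library, cluster 6 had 201 CPM, cluster 4 184 CPM, cluster 5 125 CPM, and clusters 1, 2 and 3 between 73.6 and 94.2 CPM. Without its highest cell cluster 6 had 151 CPM and cluster 4, treated alike, 177 CPM, so the order of these 2 rests on 1 cell. CRABP1 was also compared between FEV classes within these clusters. In cluster 7 of the WT-labelled library, FEV-positive cells had 393 CPM and FEV-negative cells 378 CPM, and in cluster 5 of the FKO-labelled library the values were 380.3 and 285 CPM, with 89.1% and 86.5% of the UMIs in the top 10% of cells. In cluster 8 of the FKO-labelled library they were 326 and 465 CPM. In cluster 6 of the WT-labelled library, the 203 FEV-positive cells had 222 CPM and the 59 FEV-negative cells 51.3 CPM. That is the other way from the pooled levels of this library, and the top 10% of cells held 92.3% and 85.2% of the UMIs. Clusters 1 and 9 of the FKO-labelled library had 45.5 and 42.9 CPM in FEV-positive cells. Their FEV-negative cells had 19.5 and 65.2 CPM, on 4 and 7 UMIs.

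**Figure D3:**
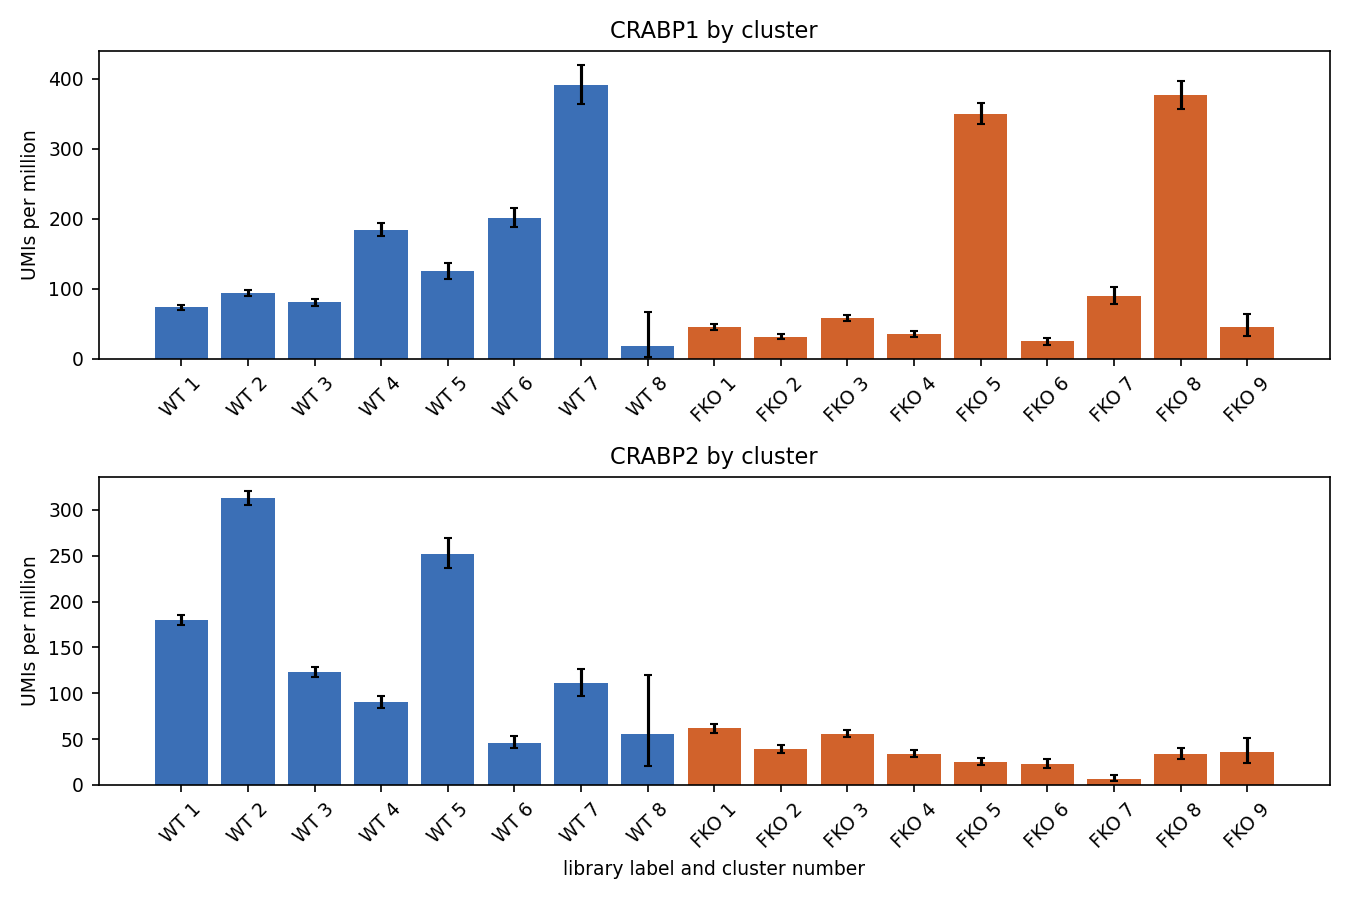
Pooled CPM (linear axis from 0) of CRABP1 (top) and CRABP2 (bottom) in the 8 clusters of the WT-labelled library (blue) and the 9 of the FKO-labelled library (orange), with exact 95% Poisson intervals. CRABP1 peaks in WT 7, FKO 8 and FKO 5, and CRABP2 in WT 2 and WT 5.

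Whether the differences between libraries held within like clusters was asked by pairing clusters that named each other as the best match, by the number shared of their 50 leading genes. This gave 7 pairs with 13 to 26 shared genes, which were not alike in every marker. SST stood at 121 CPM in WT cluster 5 and 0.0945 CPM in its match, FKO cluster 1, and ISL1 at 38.9 and 0.284 CPM. FOXA2 stood at 0 CPM in WT cluster 7 and 79.8 CPM in its match, FKO cluster 5. FEV was seen in 81.25% and 52.6% of the cells of that pair. The part of these unlike markers in the ratios was not tested. CRABP2 was lower in FKO-labelled cells in 7 of 7 pairs, with log2 ratios from -3.76 (-4.61 to -3.03) in the SLC17A8 pair to -0.46 (-0.80 to -0.13) in the pair of WT cluster 6 and FKO cluster 8. CRABP1 was lower in 6 of 7 and higher in the pair of WT cluster 6 and FKO cluster 8, at 0.91 (0.78 to 1.03). The lower ratios ran from -1.48 (-1.66 to -1.29) in WT cluster 5 with FKO cluster 1 to -0.16 (-0.28 to -0.04) in WT cluster 7 with FKO cluster 5. In 5 of those 6 pairs its log2 ratio lay between -1.48 and -0.70, under the pooled value of -0.13. Leaving out the single highest cell of each cluster, a step added after seeing the data, changed no direction, although the CAV1 pair moved from -1.34 to -0.92, because 1 cell held 389 of the 1243 CRABP1 UMIs of cluster 3, and the pair of WT cluster 6 and FKO cluster 8 moved to 1.26. In all 7 pairs the median of all genes lay between 0.37 and 0.50. The pair in which CRABP1 was higher shares 17 leading genes but holds 568 CPM of mesenchymal and 800.3 CPM of floor plate markers under the WT label and 3321 and 589.9 CPM under the FKO label, and their part in its ratios was not tested. RARA was lower in 4 pairs and higher in 3, with intervals clear of 0 in 2 and 1 of them. RARB was higher in 6 of 6 pairs with a ratio, of which 2 had an interval over 0. In WT cluster 1 with FKO cluster 4 its log2 ratio was only 0.036, on 11 and 4 UMIs, under that pair's median of 0.37. The pair of WT cluster 4 and FKO cluster 7 had 6 and 0 RARB UMIs and no ratio. CYP26A1 had UMIs enough for a measured ratio only in the pair of WT cluster 6 and FKO cluster 8 (193 and 5 UMIs), as 3 further pairs had 0 UMIs with the FKO label and could come out only as lower.

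**Figure D4:**
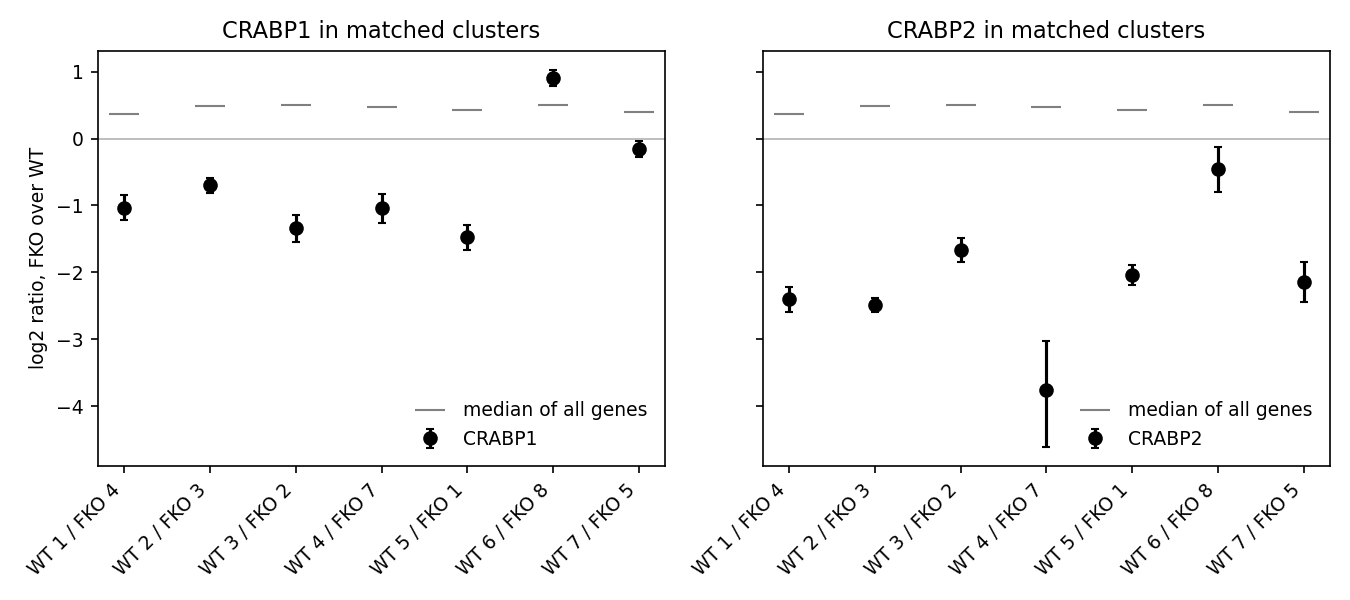
Log2 ratio of pooled CPM, FKO over WT, of CRABP1 (left) and CRABP2 (right) in the 7 pairs of matched clusters, with exact 95% intervals from counting error, and the median ratio of all genes in each pair (grey dashes). CRABP2 lies under 0 in all 7 pairs and CRABP1 in 6, the exception being WT 6 with FKO 8.

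The cells richest in CRABP1 were few, and they differed between the libraries. A limit of at least 20 UMIs, chosen after the values had been seen, left 41 WT-labelled cells with 23.7% of the CRABP1 UMIs of that library and 54 FKO-labelled cells with 46.3%. Without them CRABP1 stood at 85.3 CPM in WT-labelled cells and 55.0 CPM in FKO-labelled cells, a log2 ratio of -0.63 (-0.69 to -0.57). The cells were set aside by their own CRABP1 UMIs and at unequal median depths of the libraries, so this ratio is a description. Of the FKO-labelled cells, 27 were in cluster 8 and 23 in cluster 5. COL1A1, a collagen of connective tissue, was seen in 46.3% of them against 3.54% of the cells under the limit, and FEV in 68.5%. The WT-labelled cells lay mostly elsewhere, 16 in cluster 4, 8 in cluster 2 and 7 each in clusters 6 and 7, with FEV in 97.6% and COL1A1 in only 1 of the 41. Their median depth was 14201 UMIs against 12447.5 in the cells under the limit. CRABP2 was seen in 56.1% of the high WT-labelled cells and in 53.7% of the FKO-labelled ones, where the cells under the limit had 69.0% and 23.4%.

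Both CRABP1 and CRABP2 were seen in 34.2% of WT-labelled and 7.45% of FKO-labelled cells, and in 4.33% and 0.933% after thinning. After thinning, CRABP2 was found in 30.5% (27.3 to 33.7) of CRABP1-positive and 25.2% (24.0 to 26.5) of other WT-labelled cells, and in 10.7% (8.37 to 13.5) and 7.90% (7.24 to 8.60) of the FKO-labelled ones, where the intervals overlap slightly. Without thinning the shares were 75.9% and 63.1% in WT-labelled cells and 30.7% and 21.3% in FKO-labelled cells, with depth not matched between cells. Cells with neither UMI made up 20.3% of the WT-labelled library and 59.5% of the FKO-labelled library, or 64.2% and 84.1% after thinning.

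CYP26A1 was seen in a small set of WT-labelled cells. Cluster 6 held 193 of its 229 UMIs (84.3%), at 45.2 CPM, and clusters 1 to 5 and 7 were at most at 0.584 CPM. Cluster 8 had 0 UMIs in 47 shallow cells, which allows 27.6 CPM at 3 UMIs. Within the 262 cells of cluster 6, CYP26A1 and floor plate genes were seldom seen in the same cell. Among the 40 cells with a CYP26A1 UMI, FOXA2 and SHH were seen in none (0%, with an exact upper limit of 8.81% each), and CORIN in 1. Among the 222 cells without it, FOXA2 was seen in 33.3%, SHH, the signal of the floor plate, in 44.1% and CORIN in 30.6%. Median depth was 18340 UMIs in the 40 cells and 15033 in the 222, and its part in the split was not tested. CRABP1 stood at 966 CPM in the 40 cells and 44.3 CPM in the 222, and was seen in 57.5% and 25.2% of them. A small number of cells carried that level, since 6 of the 40 held at least 20 CRABP1 UMIs and 638 of the 701. Without cells of at least 20 UMIs on either side, CRABP1 stood at 94.4 and 35.5 CPM. CYP26C1, the remaining enzyme of the family, was chosen after its values were seen, and every UMI of it lay in those 40 cells, 9 UMIs in 2 cells (5%). TTR, the carrier of RBP4 in plasma, was at 2.76 CPM in the 40 and 312 CPM in the 222. CRABP2, at 71.7 and 41.0 CPM, differed less.

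The 22 other cells with a CYP26A1 UMI lay in 6 further clusters. FEV was seen in 95.5% of them, and none held a UMI of FOXA2 or SHH. Both genes were low outside cluster 6, at most at 8.82 CPM (FOXA2, cluster 5) and 0.713 CPM (SHH, cluster 3). Finding none in 22 cells therefore cannot show the split seen in cluster 6. CRABP1 stood at 1322 CPM in the 22 and 99.97 CPM in the remaining cells outside cluster 6, but 1 cell of cluster 3 held 389 of the 432 UMIs, and without it the level was 140.0 CPM. Over all 62 cells the genes furthest above the rest, by fold with 5 CPM added, were CYP26A1 itself, the cell cycle gene CCND1 (523 against 26.0 CPM), S100A11, TPM2, PI15, PTN (357 against 27.6 CPM), TOP2A, CRABP1, CENPF and LINC00461. The summed cycling markers stood at 563 CPM in the 62 cells and 65.8 CPM in all kept cells. In all cells of cluster 6, which holds 40 of the 62, they stood at 708 CPM, so they are not particular to cells with CYP26A1. The part of these markers in the levels above was not tested. TOP2A was seen in 7 of the 62 cells and CCND1 in 37. In the FKO-labelled library, 4 cells held the 6 CYP26A1 UMIs, 3 of them in cluster 8.

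The remaining genes of the pathway were taken from a list of 29 that make, carry or read retinoids, of which 14 had at least 10 CPM in either library. Of these, 10 had a log2 ratio above 0 and 4 below it, 3 were more than 2-fold higher in FKO-labelled cells and 1 more than 2-fold lower, where 20.7% and 1.74% of all genes at that level were, and the median was 0.65 against 0.47 for all genes. Relative to that median 8 were above and 6 below. Among carriers, FABP5, a carrier of fatty acids that can also bind retinoic acid, had 524 and 289 CPM (-0.86), RBP4 11.6 and 10.1 CPM (-0.19), and TTR 16.7 and 2.24 CPM (-2.89). Most TTR UMIs lay in few cells, 1106 of 1280 in WT cluster 6 and 105 of 130 in FKO cluster 8. RORB, an orphan receptor, had 25.8 and 13.4 CPM (-0.95).

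Among partners and cofactors of the receptors, RXRA had 5.22 CPM in WT-labelled cells and 11.1 CPM in FKO-labelled cells, a log2 ratio of 1.08, and RXRB 10.5 and 17.5 CPM (0.74). Relative to the median gene these are 0.61 and 0.26. The coactivator NCOA2 had a log2 ratio of 1.23, while NCOR1 (0.57), NCOA1 (0.95) and NCOA3 (0.83) stood 0.09, 0.48 and 0.36 above the median of all genes. RORA had 4.22 and 12.1 CPM, a log2 ratio of 1.52. The following 3 genes, under 10 CPM, were chosen after their values were seen. ALDH1A3, another enzyme that makes retinoic acid, had 0 UMIs in WT-labelled cells and 186 in FKO-labelled cells, of which 174 lay in cluster 8 at 47.1 CPM. Taken against a floor of 3 counts in the library, its log2 ratio was at least 6.36. RDH10, which makes retinaldehyde, had 93 of its 132 UMIs in the same cluster, and RXRG 137 of 318. Cluster 8 of the FKO-labelled library, the collagen cluster, had the highest CPM of ALDH1A3, RDH10, RXRG, RARG, STRA6 and CRABP1 in that library, although the limits of CRABP1 there (357 to 397) overlap those of cluster 5 (336 to 365).

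**Figure D5:**
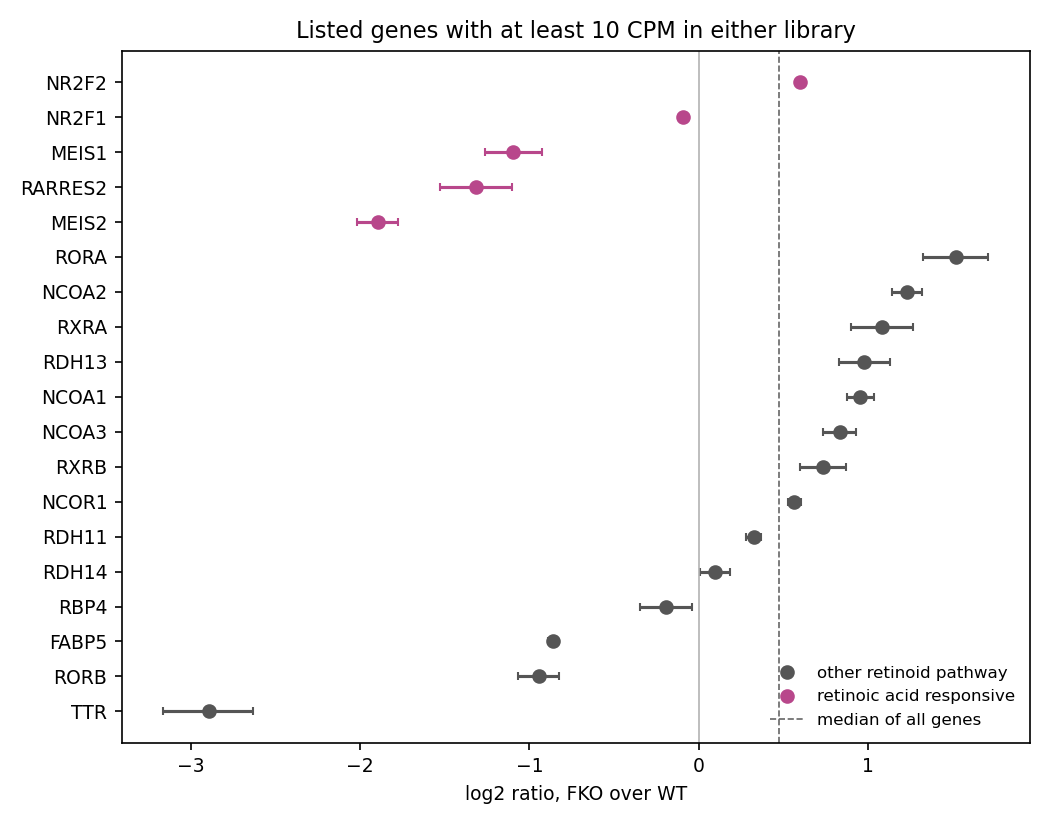
Log2 ratio of pooled CPM, FKO over WT, for listed genes with at least 10 CPM in either library: 14 other retinoid genes (grey) and 5 retinoic acid responsive genes (purple), with exact 95% counting intervals and the median of all genes at 0.47 (dashed). TTR, MEIS2, RARRES2 and MEIS1 lie more than 2-fold lower, and RORA, NCOA2 and RXRA more than 2-fold higher.

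Of 25 genes known to respond to retinoic acid, 5 had at least 10 CPM in either library and 14 were at or under 3 UMIs in both. MEIS2, a cofactor of HOX proteins, had 42.8 CPM in WT-labelled cells and 11.5 CPM in FKO-labelled cells, a log2 ratio of -1.89 (-2.02 to -1.77), and MEIS1 14.5 and 6.77 CPM, a log2 ratio of -1.09 (-1.26 to -0.93). RARRES2, which encodes the secreted protein chemerin, had 10.4 and 4.20 CPM (-1.31). NR2F1 (-0.09) and NR2F2 (0.60), nuclear receptors at 399 and 375 CPM and at 494 and 749.98 CPM, differed less. Relative to the median of all genes, 4 of the 5 were below it and 1 above. HOXA2, named after its values were seen, had 410 UMIs in WT-labelled cells and 19 in FKO-labelled cells, a log2 ratio of -4.02 (-4.77 to -3.36), and in WT-labelled cells it was seen in 7 of the 8 clusters. MEIS2 shared the cluster of highest CRABP1 in WT-labelled cells, cluster 7, where it stood at 589.6 CPM.

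Over the 17 clusters of both libraries, 3943 genes with at least 50 CPM in either library were ranked by Pearson's correlation of log2(CPM + 1) with each binding protein. Those most like CRABP1 were ADH5 (0.91), FAAP20 (0.89), C12orf75 (0.86), BLOC1S1 (0.85) and HEBP2 (0.84). Those most like CRABP2 were GSTM3 (0.92), POLE4 (0.90), MRPL1 (0.89), NME1 (0.89) and PFDN6 (0.89). Clusters of 1 library share that library's depth and composition, so these values are a description.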

How the data were processed

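The authors counted UMIs of 10x Genomics 3′ v3 libraries with Cell Ranger, and the deposited count matrices hold whole UMI counts per gene and barcode without normalisation. The file headers name version 7.1.0 and the submitters' notes version 7.0 with build GRCh38. The annotation release, the use of strand and the counting of introns are not given in the sources used here. Positions come from GENCODE release 29 on GRCh38 and upstream sequences from RefSeq (GRCh38.p14).

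The members and gene lists were chosen with earlier results of these data known. Barcodes were kept with at least 1000 UMIs, 500 genes and at most 10% mitochondrial UMIs, after removing doublets called by Scrublet (in scanpy 1.11.5, with a rate of 0.8% per 1000 barcodes), which marked 977 and 620 barcodes. This left 76805355 UMIs in the WT and 57909575 in the FKO library. UMIs were summed per library and class and given as CPM, with exact Poisson limits, Clopper-Pearson limits for shares and conditional binomial limits for ratios. No pseudocount was added to ratios, and a count of 0 was set to a floor of 3 counts, so that such a ratio is a bound. Each library was clustered without the members and listed genes (2000 variable genes, 30 components, 15 neighbours, Leiden resolution 0.4). Named genes outside the members are those of the lists with at least 10 CPM in either library, the 5 most alike over clusters, and the 10 leading genes of a class; others are said to be chosen after their values were seen, as was the limit of 20 CRABP1 UMIs. The calculation was tested on simulated data. Alternatives were all barcodes, other mitochondrial limits, doublets kept, thinning to 2000 UMIs (which left out 43 and 116 cells), scaling to the median gene and other FEV limits. Depth and mitochondrial ranges, FEV-negative cells alone and leaving out the highest CRABP1 cells were added after seeing the data. Some genes of the lists are not reported here. Python 3.11.15, numpy 2.4.6, scipy 1.17.1 and pandas 2.3.3 were used.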

Additional observations from a re-analysis of the deposited data

Results flagged for a closer look

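CRABP1 and RARA each differed between the libraries in opposite directions in the 2 classes of cells. For CRABP1 the log2 ratio of FKO over WT was -0.36 in FEV-positive cells and 0.92 in FEV-negative cells. For RARA it was -0.32 in FEV-positive and 1.61 in FEV-negative cells, the last resting on 4 UMIs with the WT label and 49 with the FKO label. The FEV-negative cells were spread differently over clusters. Of the 120 with the WT label, 59 were in cluster 6 and 24 in cluster 7. Of the 626 with the FKO label, 311 were in cluster 5 and 163 in cluster 8. In FEV-negative cells CRABP1 stood at 378 and 285 CPM in the matched clusters WT 7 and FKO 5. In WT 6 and FKO 8 it stood at 51.3 and 465 CPM. RARA in all cells of these pairs stood at 4.97 and 6.73 CPM and at 5.16 and 16.2 CPM. With 1 library per genotype the difference between the classes was not tested.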

How the results depend on the processing

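Of 224 values under other settings, 155 stayed within the limits or the 1.5 times set for counts, 62 moved and 7 turned their direction. For CRABP1, with a log2 ratio of FKO over WT of -0.13, the value was -0.18 after thinning, -0.60 when scaled to the median gene, -0.36 in FEV-positive and 0.92 in FEV-negative cells, -0.19 at more than 5% to 10% mitochondrial UMIs, and -0.83, 0.072 and -0.21 in the low, middle and high ranges of depth. For CRABP2 (-2.16) it was -1.996 with all barcodes, -2.08 and -2.06 at limits of 5% and 20% mitochondrial UMIs, -1.98 thinned, -2.64 scaled, -1.22 in FEV-negative cells, and -1.65, -2.04 and -2.41 by depth. RARA turned to 0.12 at the 5% limit and 1.61 in FEV-negative cells, and STRA6 to 0.049 there. CRABP1 in FEV-positive over FEV-negative WT-labelled cells turned to 0.034 with all barcodes and 0.38 at the 5% limit. The cause was not tested.

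Members more than 2-fold higher with the FKO label numbered 0 at the 5% limit and 1 thinned. In FEV-positive WT-labelled cells 2 members were lower with all barcodes, with doublets kept, thinned, scaled or with at least 3 FEV UMIs, and 1 was higher with all barcodes or limits of 5% and 20%. In FEV-positive FKO-labelled cells 2 were lower at the 5% limit, and 1 was higher with all barcodes, the 20% limit or at least 3 FEV UMIs. The 5% limit leaves 340 WT-labelled and 2888 FKO-labelled cells. Levels under 1 CPM rest on fewer than 100 UMIs and set wide limits. No paired analysis was possible because each group has 1 library, and for the same reason no replicate could be left out.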
